A study of Mus musculus with 15 samples.

Results

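The comparison sets mouse spermatogonial stem cell cultures given GDNF and GFRalpha1 back for 2 h against cultures that never lost them, and asks which transcripts were above or below the maintained level at that time. Its members were taken by sample title alone: 3 arrays of 2 h replacement and 3 of maintained cultures, 6 of the 15 arrays of the series. The cultures were enriched for stem cells and were started from C57BL/6 males 6 days old. In the 2 h replacement group, called 2 h cultures here, established cultures went without GDNF and GFRalpha1 for 18 h and then had both back for 2 h. Maintained cultures stayed in serum-free, defined medium with GDNF, GFRalpha1 and bFGF. The labels name only GDNF and GFRalpha1 as withdrawn, and do not say whether bFGF stayed in the medium of the withdrawn cultures. The other groups, each of 3 arrays, were taken after the 18 h withdrawal and after 4 h and 8 h of replacement. No labelled group was kept without the factors past 18 h or handled alike without their return, so the earlier withdrawal, the return of the factors, handling and added time cannot be told apart.

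GDNF, glial cell line-derived neurotrophic factor, binds the co-receptor GFRalpha1 and through it activates the receptor tyrosine kinase RET. RET signals through the RAS and ERK pathway, SRC family kinases and PI3K with AKT. In the mouse testis Sertoli cells are a source of GDNF, and the factor sustains the self-renewal of spermatogonial stem cells. ERK signalling switches on immediate-early transcription factors such as Egr1 and Fos within minutes, and then feedback inhibitors of the Sprouty and dual-specificity phosphatase families, while AKT keeps FOXO transcription factors out of the nucleus.

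Each array gave 1 MAS5 signal per probe set, in arbitrary units, scaled by the authors to a common level. The median signal of the 6 arrays lay between 42.5 and 51.8, and Pearson's r between pairs of them, across genes, between 0.95 and 0.977. The 3′ to 5′ signal ratio of actin, a sign of RNA quality, was 1.1 to 1.34 on these arrays and 2.77 on withdrawal replicate 3. That array enters the main comparison through the shared estimate of the spread and the choice of probe sets. It is also 1 of the 3 arrays behind every withdrawal mean and every test against withdrawal given below. The 8 genes used to check the cell type (Zbtb16, Gfra1, Ret, Pou5f1, Sall4, Ddx4, Dazl and Lin28a) were measured in both groups and none of these 8 was called: Dazl averaged 6605 ± 623 in 2 h cultures and 6875 ± 1122 in maintained cultures, and Ddx4 1250 ± 89.6 and 1175 ± 121 (SD, n = 3 each, as throughout). Nothing in the labels shows the replicates to be independent cultures, and p-values measure only the spread between these arrays, which may be technical. An exact test of 3 arrays against 3 cannot give a p under 0.1. Calls therefore rest on limma, with p-values adjusted over 13083 genes by Benjamini and Hochberg's method and a call at an adjusted p under 0.05, and the adjusted p-values below come from that fit. Differences are given as log2, 2 h cultures minus maintained cultures, after adding 16 to each signal, which makes the differences of dim genes smaller. The 3 arrays of a group limit the precision: the median standard error of a difference was 0.19.

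Of the 13083 genes, 318 were called (2.43%). At 2 h of replacement 149 genes (1.14%) were higher than in maintained cultures and 169 (1.29%) were lower. Of the called genes, 36 were higher and 45 lower by at least 2-fold. The median difference over all genes was 0.01, and the 2 groups of arrays did not overlap for 23.7% of all genes. The count depended on single arrays. It was 89 without 2 h replicate 1, 66 without 2 h replicate 2, 144 without maintained replicate 2, 111 without maintained replicate 3 and, with the spread estimated without withdrawal replicate 3, 624. Beside this comparison, and sharing its arrays, 18 h of withdrawal against maintained cultures gave 1052 called genes (8.04%), 2 h of replacement against withdrawal 15 (0.115%), 4 h against maintained cultures 125 (0.955%) and 8 h against maintained cultures 63 (0.482%).

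**Figure D1:**
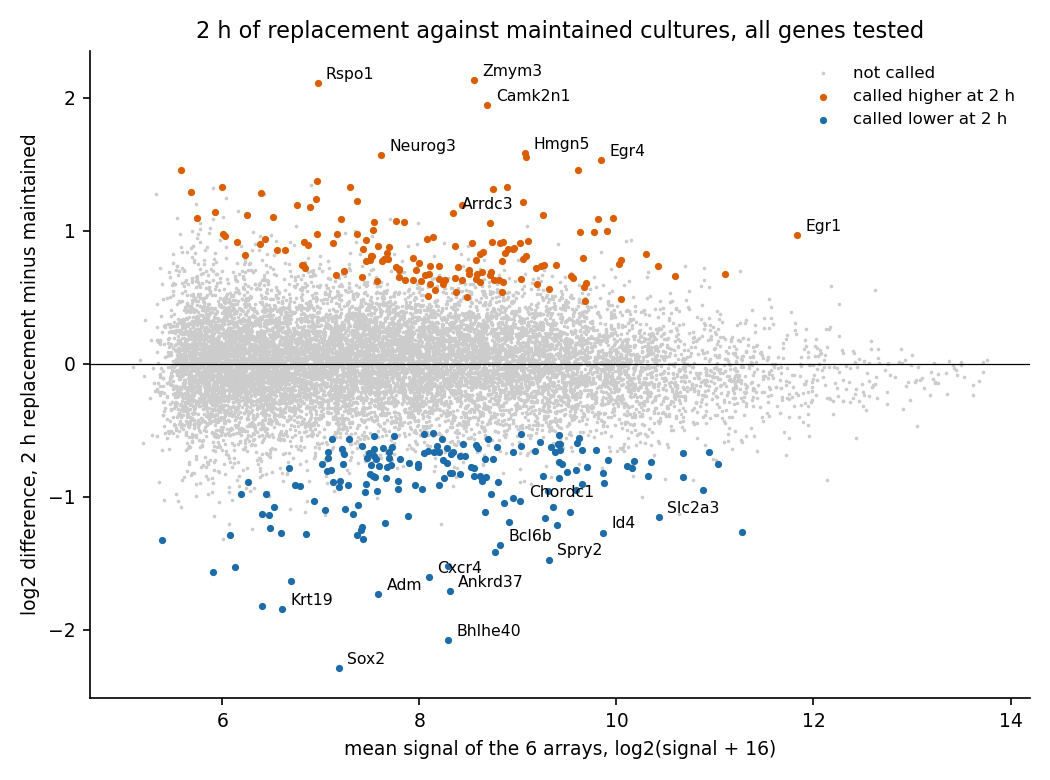
Each point is 1 of the 13083 genes tested, with its mean log2(signal + 16) over the 6 arrays on the x axis and its log2 difference, 2 h replacement minus maintained, on the y axis. The 149 genes called higher are orange and the 169 called lower are blue; Zmym3 at 2.13 and Sox2 at -2.29 are the extremes, and Egr1 is among the brightest called genes.

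The genes farthest above the maintained level were a chromatin protein, a WNT agonist and a kinase inhibitor. Zmym3, a zinc finger protein found with histone deacetylase complexes, had a signal of 658, 653 and 479 in 2 h cultures, against 107, 112 and 153 in maintained cultures (log2 difference 2.13 ± 0.24 SE, 4.39-fold, adjusted p = 8.65e-05). The groups lay far apart, and 3 further probe sets of Zmym3 were also called higher. Rspo1, a secreted protein that strengthens WNT signalling through LGR receptors, was at 223, 219 and 121, against 29.4, 43.6 and 19 (log2 2.11 ± 0.23 SE, adjusted p = 8.65e-05). Since its maintained level is dim, the log2 difference was 2.6 with a constant of 1 and 1.39 with a constant of 64. Camk2n1, an inhibitor of calcium/calmodulin-dependent kinase II, was at 783, 613 and 528, against 145, 164 and 148 (log2 1.95 ± 0.17 SE, adjusted p = 9.24e-06). All of the 2 h arrays were above all of the maintained arrays for each of these genes, although replicate 3 was the lowest of the 2 h arrays each time. The largest rises and falls were picked only among called genes whose arrays did not overlap. Their lack of overlap, here and below, was thus set by that choice and adds no evidence to their calls. The other called genes named below did not overlap between groups either, as held for 23.7% of all genes. This, too, adds no evidence to their calls. A dimmer probe set of Camk2n1 read 0.59 and was not called (adjusted p over all probe sets 0.215). After 18 h of withdrawal the means of Zmym3, Rspo1 and Camk2n1 were 819, 219 and 875. None of their 2 h levels passed the test against withdrawal (adjusted p = 0.66, 0.809 and 0.513).

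Hmgn5, a nucleosome-binding protein, was at 890, 910 and 583 in 2 h cultures, against 251, 241 and 254 in maintained cultures (3.01-fold, adjusted p = 0.000114). Rragd, a Rag GTPase that carries nutrient signals to mTORC1 at the lysosome, was at 838, 937 and 614, against 226, 280 and 266 (2.94-fold, adjusted p = 8.65e-05). Replicate 3 was again the lowest 2 h array, and still far above any maintained array for both genes. Lrig1, a transmembrane protein that restrains receptor tyrosine kinases, RET among them, was at 708, 669 and 599, against 305, 196 and 265 (2.52-fold, adjusted p = 0.00045), and 2 other probe sets of it were not called. Smoc1, a secreted calcium-binding matrix protein, averaged 597 ± 80.2 against 231 ± 37.2 (2.48-fold, adjusted p = 0.0045). Tyro3, a receptor tyrosine kinase of the TAM family, averaged 209 ± 38.1 against 73.2 ± 12.2 (2.51-fold, adjusted p = 0.0134). The netrin receptor gene Unc5a was spread widely in maintained cultures, at 192, 169 and 114 in 2 h cultures against 103, 15.6 and 60 (2.6-fold, adjusted p = 0.0395). Means after withdrawal were 899 for Hmgn5, 1146 for Rragd, 590 for Lrig1, 800 for Smoc1, 217 for Tyro3 and 162 for Unc5a. None of these genes passed the test of 2 h against withdrawal (adjusted p 0.431 to 0.978).

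Another 3 of the 15 largest rises had a maintained level under a signal of 30.5, the level below which probe sets were left out by their mean over all arrays, so that their size, too, depends on the constant added before log2. Tekt2, a tektin of cilia and flagella, averaged 53.8 ± 6.9 in 2 h cultures and 10.1 ± 7.98 in maintained cultures. Its log2 difference was 1.46 (adjusted p = 0.00487), and 2.55 with a constant of 1 or 0.67 with a constant of 64. The estrogen receptor gene Esr1 averaged 74.3 ± 21.2 against 21 ± 13.2 (log2 1.33, adjusted p = 0.0217), and another of its probe sets read -0.34. Nos1ap, an adaptor of neuronal nitric oxide synthase, averaged 55.7 ± 3.82 against 14.6 ± 10.9 (log2 1.29, adjusted p = 0.0131). Tekt2, Esr1 and Nos1ap averaged 72.9, 118 and 89.4 after withdrawal. Their 2 h levels did not pass the test against withdrawal (adjusted p = 0.748, 0.638 and 0.639). Of the rises named so far, the calls of Unc5a, Esr1, Tyro3 and Nos1ap were lost when 2 h replicate 1, 2 h replicate 2 or maintained replicate 2 was left out. Unc5a also lost its call without maintained replicate 3, and Esr1 without maintained replicate 1. The highest adjusted p of these was 0.165 for Unc5a, 0.124 for Esr1, 0.0799 for Tyro3 and 0.0652 for Nos1ap.

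**Figure D2:**
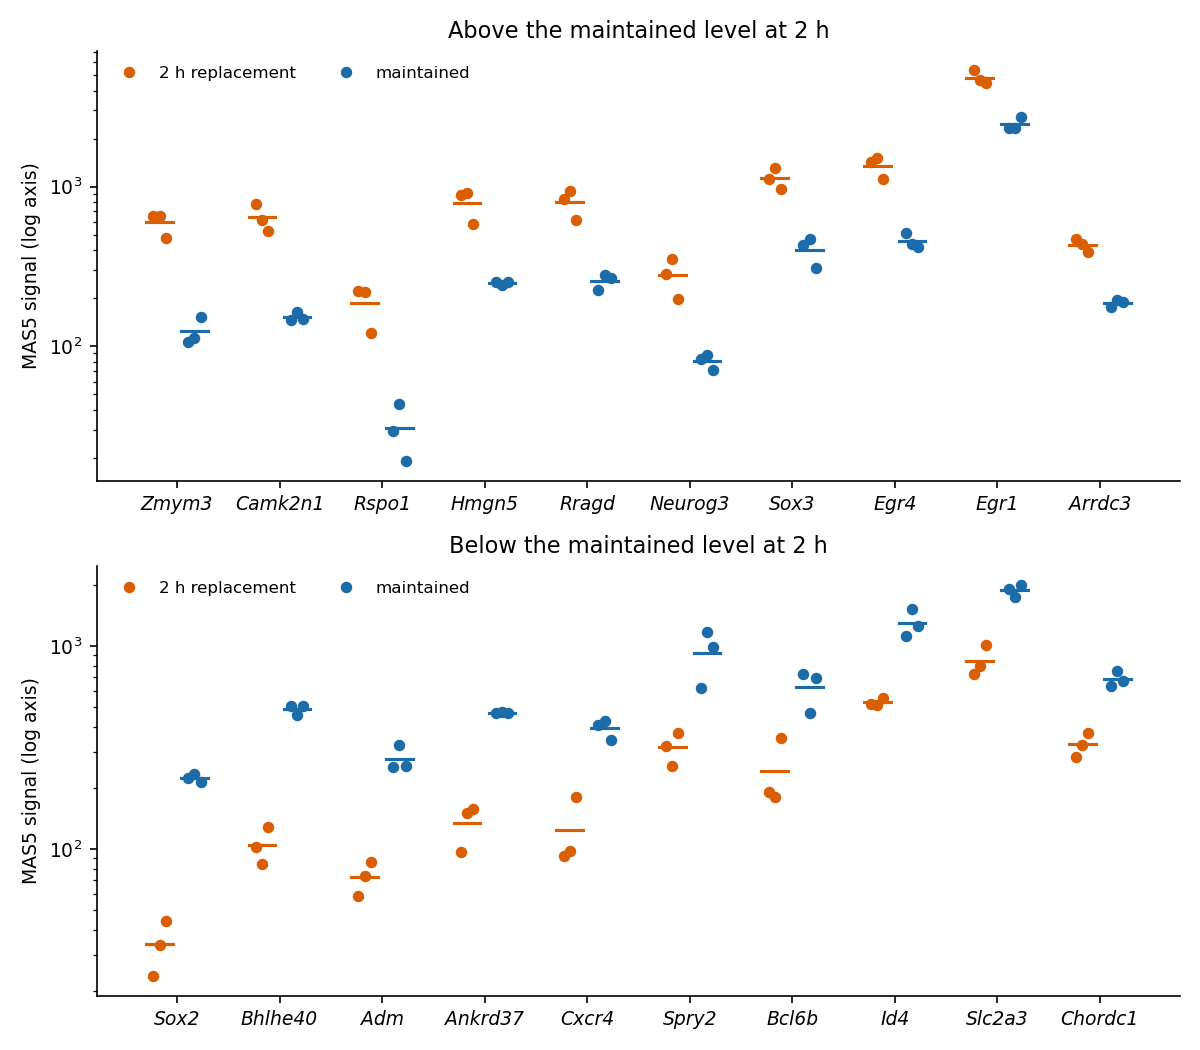
MAS5 signal on a log axis, with 1 point per array and a bar at the group mean, orange for 2 h replacement and blue for maintained cultures. The upper panel shows 10 genes above the maintained level, such as Zmym3, and the lower panel 10 genes below it, such as Sox2. All are called genes, most of them picked for lack of overlap, and for each the 3 arrays of one group lie wholly above the 3 of the other. Over all genes tested the groups did not overlap for 23.7%.

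The largest fall was that of Sox2, a transcription factor of pluripotent and neural stem cells. Sox2 read 23.6, 33.6 and 44.2 in 2 h cultures, against 224, 235 and 214 in maintained cultures (log2 difference -2.29 ± 0.22 SE, 4.89-fold lower, adjusted p = 1.99e-05). Every 2 h array was far below every maintained array, and the mean after withdrawal was 37.3, close to that at 2 h. The log2 difference was -2.74 with a constant of 1 and -1.56 with a constant of 64. Bhlhe40, a repressor that acts on circadian and hypoxia-regulated genes, read 102, 84 and 129, against 507, 457 and 506 (log2 -2.08 ± 0.17 SE, 4.23-fold lower, adjusted p = 7.26e-06). Its groups did not overlap either, which the choice of the largest falls required, and its mean after withdrawal was 97.4. Among the other 16 tested genes of the circadian clock list, Nr1d1, the repressor REV-ERBalpha, was called higher (290 ± 36.3 against 136 ± 56.6, adjusted p = 0.0158) and none was called lower. The call of Nr1d1 was lost when 2 h replicate 1, 2 h replicate 2, maintained replicate 2 or maintained replicate 3 was left out (adjusted p up to 0.089).

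Snap91, Crmp1 and Hs3st3b1 were also among the 15 largest falls. Snap91, a clathrin assembly protein, read 23.7, 37.9 and 42 in 2 h cultures, against 144, 107 and 174 in maintained cultures (3.11-fold lower, adjusted p = 0.0009). Crmp1, a collapsin response mediator, averaged 229 ± 113 against 613 ± 168 (2.66-fold lower, adjusted p = 0.0145). Hs3st3b1, which adds 3-O-sulfate to heparan sulfate, read 117, 145 and 176, against 437, 376 and 532 (2.87-fold lower, adjusted p = 0.0208). It was the 1 called gene of 18 tested heparan sulfate enzymes, whose median difference was -0.01, and its 2 other probe sets were not called. Crmp1 and Hs3st3b1 both lost their calls when 2 h replicate 1, 2 h replicate 2 or maintained replicate 3 was left out, with adjusted p-values up to 0.0949 and 0.104.

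In 5 of the 15 largest falls the 2 h level was itself under a signal of 30.5, and here too the size of the fall depends on the constant. Cdc42ep2, an effector of the GTPase CDC42, read 23.8, 20.5 and 19 in 2 h cultures, against 130, 118 and 99.1 in maintained cultures (log2 -1.82, adjusted p = 0.00296). Ogn, a small proteoglycan of the extracellular matrix, averaged 21.5 ± 15.1 against 85.9 ± 8.19 (log2 -1.53, adjusted p = 0.00499). Phyhipl averaged 13.9 ± 5.24 against 73.8 ± 24.9 (log2 -1.57, adjusted p = 0.0116), and lost its call without 2 h replicate 2 (adjusted p = 0.076). Rbm43, an RNA-binding protein, averaged 7.97 ± 2.8 against 43.9 ± 4.14 (log2 -1.33, adjusted p = 0.0158), and its call was lost without 2 h replicate 2 and without maintained replicate 3 (adjusted p up to 0.0805). With a constant of 1 the differences ran to -2.4 for Cdc42ep2, -2.27 for Ogn, -2.35 for Phyhipl and -2.36 for Rbm43.

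Keratins, which form the intermediate filaments of epithelia, were listed after these values had been seen. Krt19 read 24, 8.3 and 56 in 2 h cultures, against 112, 128 and 159 in maintained cultures (log2 -1.84, adjusted p = 0.0158). Krt18 read 50.3, 28.6 and 52.1, against 106, 116 and 102 (log2 -1.08, adjusted p = 0.0191). Both were lower without overlap, and the other 4 tested keratins were not called. Over all genes tested the groups did not overlap for 23.7%. Both calls were lost without 2 h replicate 1, 2 h replicate 2, maintained replicate 2 or maintained replicate 3, with adjusted p-values up to 0.0961 for Krt19 and 0.111 for Krt18.

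Genes that ERK signalling switches on lay on both sides of the maintained level. Of 44 tested, 2 were called higher and 4 lower, and their median difference was -0.24, against 0.01 over all genes. Of all genes tested, 1.14% were called higher and 1.29% lower. The 4 lower became 2 without 2 h replicate 2, maintained replicate 1 or maintained replicate 2, and 11 with array weights. After 18 h of withdrawal the same list had a median of -0.69 against maintained cultures. Egr1, an immediate-early zinc finger factor, read 5355, 4657 and 4442 in 2 h cultures, against 2314, 2340 and 2715 in maintained cultures (log2 0.97 ± 0.15 SE, 1.95-fold, adjusted p = 0.00169). The lowest 2 h array was well above the highest maintained array. Egr1 averaged 1448 after withdrawal, and 2 h of replacement differed from withdrawal by a log2 of 1.74 (adjusted p = 1.29e-05). Its relative Egr4 read 1434, 1516 and 1114, against 514, 438 and 416 (log2 1.53 ± 0.19 SE, 2.89-fold, adjusted p = 0.000251). Egr4 was already above the maintained level after withdrawal, at 1063 ± 98.6 against 456 ± 51 (adjusted p = 0.000879), and its 2 h level did not pass the test against withdrawal (log2 0.34, adjusted p = 0.661).

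The ERK-responsive genes below the maintained level included a feedback inhibitor and Myc. Spry2, a Sprouty protein that restrains receptor tyrosine kinase signalling, read 320, 255 and 373 in 2 h cultures, against 618, 1176 and 985 in maintained cultures (log2 -1.47 ± 0.25 SE, 2.77-fold lower, adjusted p = 0.00522). The groups did not overlap, which the choice of Spry2 among the largest falls required. The maintained arrays were widely spread, and the withdrawal mean was 255. Ier3, an immediate-early regulator of survival, read 417, 470 and 462, against 973, 1092 and 918 (log2 -1.12 ± 0.12 SE, 2.17-fold lower, adjusted p = 8.65e-05). The arrays of each group lay close together here, with a clear gap between groups. Myc, a transcription factor of growth, read 41.2, 28.8 and 28.2, against 99.7, 81.8 and 61.1 (log2 -0.98 ± 0.22 SE, adjusted p = 0.0223). Ier5, an immediate-early gene, averaged 204 ± 37.4 against 329 ± 9.9 (log2 -0.66, adjusted p = 0.027). Myc lost its call without 2 h replicate 2, 2 h replicate 3, maintained replicate 1 or maintained replicate 2 (adjusted p up to 0.102), and Ier5 with any array left out other than 2 h replicate 3 (up to 0.146).

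Most ERK-responsive genes did not pass the test against maintained cultures at 2 h. Fos read 1002, 919 and 779 in 2 h cultures, against 645, 740 and 713 in maintained cultures, a log2 difference of 0.35 with a 95% interval from -0.08 to 0.78. The difference of Junb was 0.42 (interval 0.14 to 0.7, adjusted p = 0.113). That of Egr2, which averaged 748 ± 166 against 1007 ± 116, was -0.44 (interval -0.84 to -0.03, adjusted p = 0.259). The phosphatase gene Dusp6 (-0.11, interval -0.65 to 0.43), the Sprouty gene Spry4 (0.1, interval -0.32 to 0.51) and the ETS factor Etv4 (-0.05, interval -0.69 to 0.59) were not called. The chosen probe set of Egr3 was not called (0.36), but another, with a higher mean signal, was called higher (1.08, adjusted p over all probe sets 0.0287). The CArG box, which serum response factor binds at many immediate-early genes, was found in the RefSeq start windows of 3 of 32 tested genes of the list (Dusp5, Egr2 and Zfp36), against 1.49% of all tested genes with a window, and in none of its 4 called genes with one.

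**Figure D3:**
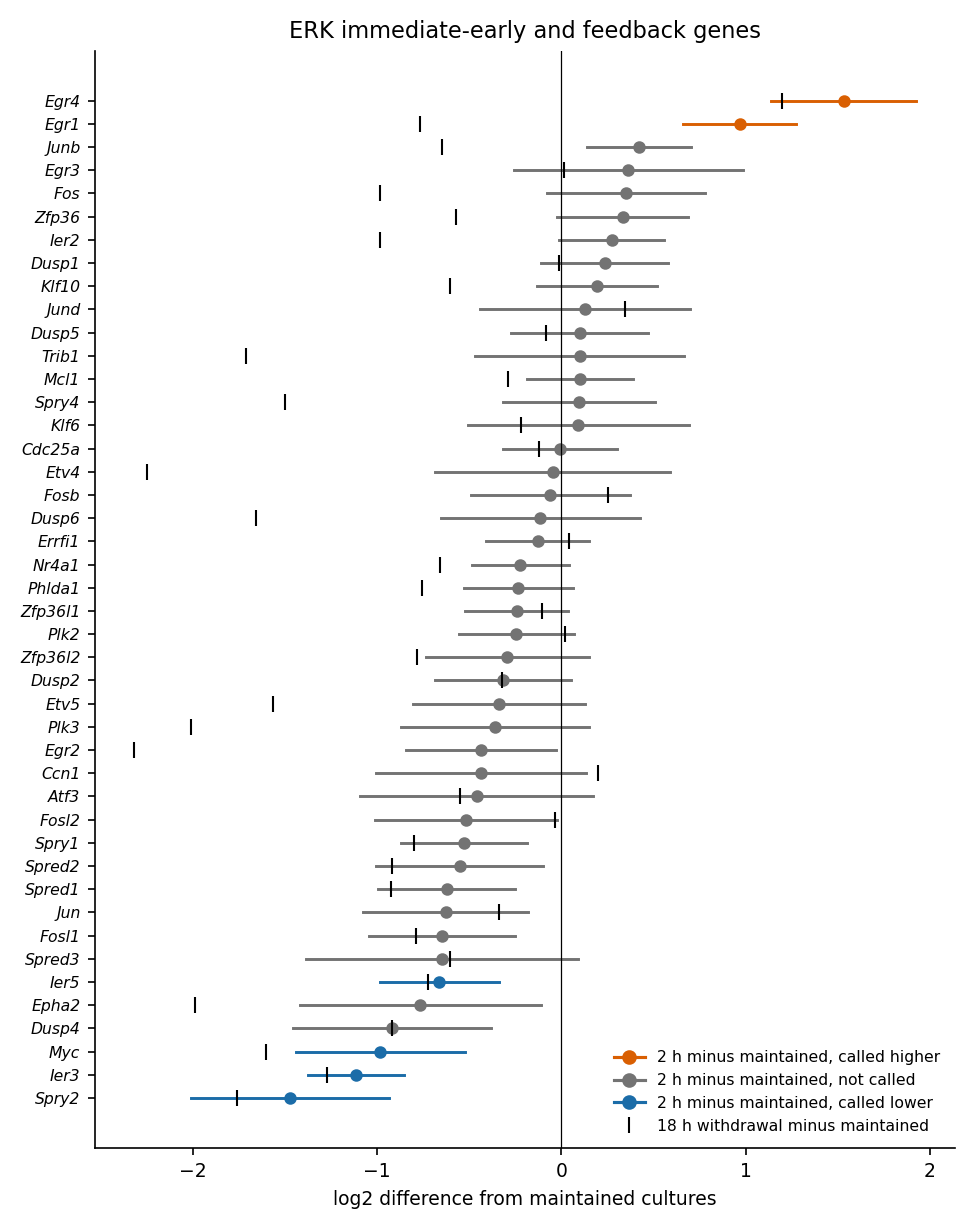
Log2 difference from maintained cultures for the 44 tested ERK immediate-early and feedback genes; points with 95% intervals are 2 h of replacement, and black ticks are 18 h of withdrawal. Egr4 at 1.53 and Egr1 at 0.97 are called higher, Spry2 at -1.47, Ier3, Myc and Ier5 are called lower, and Etv4 lies near 0 at 2 h.

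Among 8 GDNF-regulated genes named in the laboratory's own work, a list drawn up on these samples and so no independent evidence of direction, 4 were called below the maintained level and none above it (median -0.56). The share of all genes called lower was 1.29%. After 18 h of withdrawal the same list had a median of -1.76 against maintained cultures. Set against withdrawal, the 2 h levels of Lhx1, Etv5 and Egr2 were called higher (log2 1.11, 1.23 and 1.88, adjusted p = 0.0492, 0.0378 and 0.000126). That of Bcl6b (log2 1.2, adjusted p = 0.0556) and those of the other members did not pass that test. Bcl6b, a transcriptional repressor with a role in stem cell maintenance, read 190, 180 and 353 in 2 h cultures, against 728, 465 and 696 in maintained cultures (log2 -1.36 ± 0.23 SE, 2.58-fold lower, adjusted p = 0.00499). Cxcr4, the receptor of the chemokine Cxcl12, read 92.5, 97.2 and 181, against 408, 427 and 346 (log2 -1.6 ± 0.23 SE, 3.04-fold lower, adjusted p = 0.00107). For both genes replicate 3 was the highest of the 2 h arrays. The groups did not overlap, which the choice of both among the largest falls required. The LIM homeobox factor Lhx1 read 219, 214 and 377, against 403, 547 and 503 (1.79-fold lower, adjusted p = 0.0388). The POU factor Pou3f1 averaged 229 ± 5.81 against 379 ± 66.4 (1.6-fold lower, adjusted p = 0.0332), and another probe set of it read -0.03. The call of Lhx1 was lost without 2 h replicate 1, 2 h replicate 2, maintained replicate 2 or maintained replicate 3 (adjusted p up to 0.19), and that of Pou3f1 with any array left out other than maintained replicate 3 (up to 0.156). Etv5, an ETS factor of self-renewal, overlapped between groups, at 739, 743 and 1078 against 1486, 747 and 1090, and was not called (log2 -0.34, 95% interval -0.81 to 0.13). Tspan8 was not called on its chosen probe set (-0.21), while a dimmer one was called lower (-1.21, adjusted p over all probe sets 0.0214).

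The genes of undifferentiated spermatogonia were split by direction. Of 27 tested, 4 were called higher and 4 lower, against 1.14% and 1.29% of all genes, with a median of -0.06. Id4, a helix-loop-helix protein that blocks DNA binding by its partners and marks stem cells, read 515, 511 and 555 in 2 h cultures, against 1119, 1527 and 1258 in maintained cultures (log2 -1.27 ± 0.18 SE, 2.41-fold lower, adjusted p = 0.00107). All 2 h arrays were far below the lowest maintained array, and 2 other probe sets of Id4 read -0.82 and -0.62 without a call. The T-box factor Eomes averaged 164 ± 35 against 326 ± 34.3 (1.92-fold lower, adjusted p = 0.014), and lost its call without 2 h replicate 1, 2 h replicate 2 or maintained replicate 3 (adjusted p up to 0.0949). Bcl6b and Lhx1 were the other members called lower.

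Neurog3, a basic helix-loop-helix factor that marks progenitor spermatogonia, read 285, 352 and 196 in 2 h cultures, against 83.3, 88.5 and 70.7 in maintained cultures (log2 1.57 ± 0.23 SE, 2.97-fold, adjusted p = 0.00122). Sox3, an HMG-box factor needed for mouse spermatogonia to advance, read 1112, 1303 and 968, against 428, 471 and 309 (log2 1.46 ± 0.22 SE, 2.75-fold, adjusted p = 0.00169). For both genes every 2 h array was far above every maintained array. Their means after withdrawal were 272 for Neurog3 and 1278 for Sox3, and neither 2 h level passed the test against withdrawal (adjusted p = 0.998 and 0.854). Upp1, uridine phosphorylase, averaged 109 ± 29.1 against 41.3 ± 5.97 (2.15-fold, adjusted p = 0.0162), and lost its call without 2 h replicate 2 (adjusted p = 0.102). The fourth member called higher was Egr4.

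Of 18 tested genes of differentiating spermatogonia 3 were called higher and none lower, against 1.14% and 1.29% of all genes, with a median of 0.23. Dmrt1, a DM-domain factor that holds spermatogonia in mitosis, read 2675, 2860 and 2548 in 2 h cultures, against 1702, 1667 and 1674 in maintained cultures (1.6-fold, adjusted p = 0.00889). Sohlh1, a factor of spermatogonial differentiation, read 202, 255 and 156, against 103, 92.8 and 86.7 (1.97-fold, adjusted p = 0.0223). The arrays of these groups did not overlap for either gene, as held for 23.7% of all genes. Lmo1, a LIM-only protein, averaged 127 ± 29.2 against 69.4 ± 8.17 (1.65-fold, adjusted p = 0.0417). Kit, the receptor that marks the onset of differentiation, was at 180 ± 16.9 against 149 ± 28.6 and was not called (log2 0.25, 95% interval -0.06 to 0.57), nor was Stra8 (0.31, interval -0.22 to 0.83). Dmrt1 lost its call without 2 h replicate 2 (adjusted p = 0.071). Sohlh1 lost it without 2 h replicate 1, 2 h replicate 2, maintained replicate 2 or maintained replicate 3 (up to 0.134), and Lmo1 with any array left out other than 2 h replicate 3 (up to 0.19).

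The receptor genes of the pathway itself gave smaller differences. Gfra1, the GDNF co-receptor, read 942, 845 and 1644 in 2 h cultures, against 1436, 1425 and 1628 in maintained cultures, and was not called (log2 -0.44, adjusted p = 0.27). Replicate 3 of the 2 h cultures was the highest of the 6 arrays, and without it Gfra1 was called lower (log2 -0.73, adjusted p = 0.029). Ret read 921, 919 and 889, against 905, 410 and 574, and was not called (0.59, adjusted p = 0.401). Of the 22 tested GDNF and FGF ligands and receptors, the artemin co-receptor Gfra3 was called higher (173 ± 15.7 against 82 ± 22.6, adjusted p = 0.0113) and the ligand Fgf9 was called lower (136 ± 35.1 against 272 ± 24.5, adjusted p = 0.0287). Gfra3 lost its call without maintained replicate 3 (adjusted p = 0.0649), and Fgf9 without 2 h replicate 1, 2 h replicate 2, maintained replicate 2 or maintained replicate 3 (up to 0.163). Zbtb16 (PLZF), a zinc finger factor of stem cell maintenance, averaged 1939 ± 429 against 1414 ± 32.7 and was not called (adjusted p = 0.292). Its other probe sets read 0.85 and 0.55 without a call. With the mean of its probe sets Zbtb16 was called higher (log2 0.61, adjusted p = 0.037). Of 16 tested pluripotency genes Sox2 alone was called, and Pou5f1 was close to level, at 93.1 ± 5.6 against 90.8 ± 4.63.

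Genes of glucose use and of the response to low oxygen were lower at 2 h where they were called. Of 16 tested glycolysis genes 3 were called lower and none higher (median -0.38), against 1.29% and 1.14% of all genes. Slc2a3, a high-affinity glucose transporter, read 730, 796 and 1007 in 2 h cultures, against 1917, 1734 and 1991 in maintained cultures (log2 -1.15 ± 0.17 SE, 2.22-fold lower, adjusted p = 0.00138). Hk2, the hexokinase that traps glucose in the cell, read 470, 439 and 635, against 1071, 952 and 961 (log2 -0.95 ± 0.14 SE, 1.93-fold lower, adjusted p = 0.00189). The groups were well apart for both. Pfkp, a phosphofructokinase, averaged 188 ± 28.9 against 309 ± 31.9 (1.59-fold lower, adjusted p = 0.0367), and lost its call whichever of the 6 arrays was left out (adjusted p 0.0607 to 0.168).

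A list of genes that respond to low oxygen, drawn up after the values had been seen, had 8 of 29 tested members called lower and none higher (median -0.33). The shares over all genes were 1.29% lower and 1.14% higher. Since the list was chosen for such members, its count is a description. The count of members lower was 5 without 2 h replicate 1, 2 h replicate 2, maintained replicate 2 or maintained replicate 3, and with array weights 13 were lower and 2 higher. Adm, which encodes the peptide hormone adrenomedullin, read 58.9, 73.4 and 86.1 in 2 h cultures, against 254, 326 and 256 in maintained cultures (log2 -1.73 ± 0.19 SE, 3.32-fold lower, adjusted p = 8.65e-05). Ankrd37, an ankyrin repeat protein, read 96.6, 151 and 157, against 465, 472 and 465 (log2 -1.71 ± 0.16 SE, 3.27-fold lower, adjusted p = 1.99e-05). For both, the highest 2 h array was far below the lowest maintained array. Bnip3, a mitochondrial protein of mitophagy and cell death, averaged 498 ± 36 against 800 ± 104 (1.58-fold lower, adjusted p = 0.0295), and lost its call with any array left out other than maintained replicate 1 (up to 0.147). Slc2a3, Hk2, Pfkp, Bhlhe40 and Vldlr were the other members. Other well known members were not called: Vegfa (-0.25), Pgk1 (-0.87, adjusted p = 0.0988) and Ldha (-0.61, adjusted p = 0.179).

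The start regions of Ankrd37 and Hk2 are shown because both genes were called lower and their windows hold the letters ACGTG, the core of the element that hypoxia-inducible factors bind. The sequences are RefSeq windows on GRCm38.p6, from 250 bases before to 50 bases after the annotated start, read 5′ to 3′ along the gene. Both genes lie on the minus strand, Ankrd37 at chr8:45999801-46000100 and Hk2 at chr6:82774405-82774704. Capitals mark ACGTG on either strand, so that CACGT is a match on the opposite one.
Ankrd37: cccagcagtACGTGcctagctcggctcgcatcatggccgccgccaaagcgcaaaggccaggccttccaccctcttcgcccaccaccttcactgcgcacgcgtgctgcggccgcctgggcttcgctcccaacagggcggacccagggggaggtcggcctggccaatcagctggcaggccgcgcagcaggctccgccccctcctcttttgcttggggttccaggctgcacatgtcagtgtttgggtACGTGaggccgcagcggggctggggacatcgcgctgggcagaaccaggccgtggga
Hk2: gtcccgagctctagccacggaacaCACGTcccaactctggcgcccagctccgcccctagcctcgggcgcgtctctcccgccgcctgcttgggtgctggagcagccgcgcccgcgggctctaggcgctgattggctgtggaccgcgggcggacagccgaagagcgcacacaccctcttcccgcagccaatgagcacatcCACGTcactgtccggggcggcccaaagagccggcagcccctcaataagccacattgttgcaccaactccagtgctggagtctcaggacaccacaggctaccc
Each window holds 2 matches. Of the 26 tested hypoxia list genes with a window in the table, 17 hold ACGTG, against 28.8% of all tested genes with a window. Of the 6 called genes of the list with a window, 3 hold it. Over all 32851 windows the share was 19.6%, and it was 31.1% among genes called higher at 2 h and 28.3% among genes called lower.

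Cholesterol synthesis genes lay below the maintained level in 18 of 20 tested cases, with a median of -0.35, and 3 of them were called. Of all 13083 genes, 49.3% lay below the maintained level and 1.29% were called lower. The calls of the list numbered 1 with no filter on dim probe sets, with arrays shifted to 1 median, with no variance trend or without maintained replicate 2, and 0 without 2 h replicate 1, 2 h replicate 2 or maintained replicate 3, while array weights gave 8. Nsdhl, a sterol dehydrogenase, read 697, 752 and 682 in 2 h cultures, against 1126, 1100 and 1337 in maintained cultures (1.65-fold lower, adjusted p = 0.0223). Pmvk, phosphomevalonate kinase, averaged 143 ± 39.3 against 239 ± 13.8 (1.63-fold lower, adjusted p = 0.0436). Msmo1, a methylsterol monooxygenase, averaged 1512 ± 270 against 2375 ± 167 (1.58-fold lower, adjusted p = 0.0376). A dimmer probe set of Msmo1 read 0.48 without a call, and with the mean of both the difference was -0.09 and not called (adjusted p = 0.854). The groups of Nsdhl, Pmvk and Msmo1 did not overlap, as held for 23.7% of all genes. The withdrawal means of Nsdhl, Pmvk and Msmo1, 552, 97.5 and 919, were lower again. The calls were lost without 2 h replicate 1, 2 h replicate 2 or maintained replicate 3 for all 3 genes. Nsdhl also lost it without 2 h replicate 3, Msmo1 without maintained replicate 2, and Pmvk without maintained replicate 1 or maintained replicate 2. Adjusted p-values reached 0.117, 0.191 and 0.191 for Nsdhl, Msmo1 and Pmvk. None of 17 tested genes of fatty acid synthesis was called (median -0.19).

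FOXO target genes, which rise when AKT activity drops, had 2 of 27 tested members called higher and 1 lower (median 0.1), against 1.14% and 1.29% of all genes. Txnip, which binds thioredoxin and limits glucose uptake, read 1418, 1334 and 1124 in 2 h cultures, against 801, 702 and 774 in maintained cultures (log2 0.75 ± 0.14 SE, 1.68-fold, adjusted p = 0.0076). Fbxo32, a subunit of an SCF ubiquitin ligase, read 337, 429 and 298, against 208, 147 and 170 (1.94-fold, adjusted p = 0.0218). Neither gene overlapped between groups, as held for 23.7% of all genes. Txnip averaged 1441 and Fbxo32 543 after withdrawal. Cdkn1a, the cyclin-dependent kinase inhibitor p21, went the other way, at 592, 563 and 485 against 846, 1021 and 1014 (1.74-fold lower, adjusted p = 0.0265). Its withdrawal mean was 847, from 722, 681 and 1140, the last on withdrawal replicate 3 with its high actin ratio. Txnip lost its call without 2 h replicate 1 or 2 h replicate 2 (adjusted p up to 0.0576), Fbxo32 also without maintained replicate 2 or maintained replicate 3 (up to 0.125), and Cdkn1a with any array left out other than maintained replicate 1 (up to 0.114).

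The window of Txnip lies at chr3:96557707-96558006 on the plus strand of GRCm38.p6. It is shown because, of the 2 called FOXO targets with a window, Txnip is the 1 that holds GTAAACA. Forkhead factors bind these letters, which are in capitals.
Txnip: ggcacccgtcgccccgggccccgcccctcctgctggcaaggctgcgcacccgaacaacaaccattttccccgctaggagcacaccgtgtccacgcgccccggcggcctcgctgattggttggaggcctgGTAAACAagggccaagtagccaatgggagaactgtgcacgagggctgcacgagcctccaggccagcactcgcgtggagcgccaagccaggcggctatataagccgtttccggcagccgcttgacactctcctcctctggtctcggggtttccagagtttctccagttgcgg
Of the 24 tested FOXO target genes with a window, 5 hold GTAAACA on either strand, against 3.07% of all tested genes with a window and 3.65% of all 32851 windows. The share was 4.2% among genes called higher at 2 h and 3.94% among genes called lower.

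A pair of genes of the heat shock response was below the maintained level at 2 h although their withdrawal means lay near it. Chordc1, a co-chaperone of HSP90, read 285, 325 and 371 in 2 h cultures, against 635, 748 and 668 in maintained cultures (log2 -1.03 ± 0.16 SE, 2.05-fold lower, adjusted p = 0.00169). Hsph1, a chaperone of the HSP110 family, read 622, 640 and 701, against 1030, 1360 and 1130 (log2 -0.82 ± 0.13 SE, 1.76-fold lower, adjusted p = 0.00282). The groups did not overlap for either gene, as held for 23.7% of all genes. Both kept their calls whichever of the 6 arrays was left out. After withdrawal Chordc1 averaged 586 and Hsph1 1022. Set against withdrawal, the 2 h levels of Chordc1 (log2 -0.82, adjusted p = 0.0523) and Hsph1 (-0.63, adjusted p = 0.0798) did not pass the test. A dimmer probe set of Hsph1 read -0.25 and was not called. These were the called members of 19 tested in a heat shock list drawn up after the values had been seen (median -0.12). The share of all genes called lower was 1.29%. The abundant chaperone genes Hsp90aa1 (-0.12) and Hspa8 (-0.18) were not called.

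The windows of Chordc1 and Hsph1 both hold the letters GAANNTTC, an inverted pair of the units that heat shock factors bind, which reads the same on both strands and is in capitals below. Chordc1 lies at chr9:18292017-18292316 on the plus strand and Hsph1 at chr5:149636287-149636586 on the minus strand of GRCm38.p6, the first of its 2 windows in the table.
Chordc1: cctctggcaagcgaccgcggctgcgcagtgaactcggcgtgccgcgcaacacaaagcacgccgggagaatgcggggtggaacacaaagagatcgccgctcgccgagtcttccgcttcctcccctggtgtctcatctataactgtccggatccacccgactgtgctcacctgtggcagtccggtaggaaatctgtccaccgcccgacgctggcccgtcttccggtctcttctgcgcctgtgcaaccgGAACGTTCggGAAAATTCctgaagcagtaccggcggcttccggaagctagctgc
Hsph1: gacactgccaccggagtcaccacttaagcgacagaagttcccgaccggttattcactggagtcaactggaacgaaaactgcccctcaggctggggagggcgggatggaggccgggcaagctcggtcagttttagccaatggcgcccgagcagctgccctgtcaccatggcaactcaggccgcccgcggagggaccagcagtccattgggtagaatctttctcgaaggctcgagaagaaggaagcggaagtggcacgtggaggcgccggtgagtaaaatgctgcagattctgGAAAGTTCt
Chordc1 holds 2 matches and Hsph1 holds 1. Of 17 tested heat shock list genes with a window, 11 hold GAANNTTC, against 7.06% of all tested genes with a window and 7.86% of all 32851 windows. The other members of the list that hold it were not called.

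Further lists each held few called genes, beside 1.14% called higher and 1.29% called lower over all genes. In protein folding and stress, Xbp1, a factor of the unfolded protein response, was called lower (830 ± 120 in 2 h cultures, 1431 ± 128 in maintained cultures, adjusted p = 0.00773), and with Hsph1 it made up the 2 calls of 28 tested chaperone and folding genes. In the amino acid and ATF4 response 2 of 28 were called lower, Asns, asparagine synthetase (543 ± 84.9 against 790 ± 20, adjusted p = 0.0394), and Vldlr, a lipoprotein receptor (80.6 ± 21.9 against 191 ± 52.7, adjusted p = 0.0223). The other 3 probe sets of Vldlr read -0.38, -0.06 and -0.64 without a call, and averaging all 4 gave a difference of -0.54, not called (adjusted p = 0.125). Of 29 tested genes of G1 and S phase, Chaf1b, a subunit of a chromatin assembly factor, was called higher (549 ± 52.6 against 257 ± 42.7, adjusted p = 0.0009) and Cdc6, which licenses replication origins, lower (176 ± 68.6 against 298 ± 10.8, adjusted p = 0.049). Chaf1b kept its call with any 1 array left out. The calls of Xbp1, Asns, Vldlr and Cdc6 were lost without 2 h replicate 1 or 2 h replicate 2. Asns, Vldlr and Cdc6 also lost theirs without maintained replicate 2 or maintained replicate 3, and Asns and Cdc6 without maintained replicate 1. Adjusted p-values then reached 0.0652, 0.178, 0.123 and 0.209 for Xbp1, Asns, Vldlr and Cdc6.

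Among signals between cells, Notch genes had 1 of 19 tested called higher and 1 lower, against 1.14% and 1.29% of all genes. Hes5, a target of Notch, averaged 101 ± 16.3 in 2 h cultures and 35.6 ± 26.6 in maintained cultures (2.43-fold, adjusted p = 0.0187), and Jag1, a ligand, averaged 356 ± 45.6 and 853 ± 339 (2.23-fold lower, adjusted p = 0.0191), with another probe set of Jag1 at -0.01. In the WNT list Rspo1 was called higher, and its receptor Lgr5 lower, at 126 ± 14.6 against 214 ± 33.7 (1.62-fold, adjusted p = 0.0191), of 25 tested. In the BMP and TGF-beta list Acvr2b, an activin receptor, was called higher (661 ± 69.4 against 344 ± 8.18, adjusted p = 0.0113) and Id4 lower, of 29 tested. Acvr2b lost its call without 2 h replicate 1 (adjusted p = 0.0634), and Lgr5 without 2 h replicate 2, 2 h replicate 3 or maintained replicate 3 (up to 0.11). Jag1 lost its call without 2 h replicate 1, 2 h replicate 2, maintained replicate 2 or maintained replicate 3 (up to 0.102), and Hes5 without 2 h replicate 1, 2 h replicate 2, maintained replicate 1 or maintained replicate 3 (up to 0.1). The medians of the Notch, WNT and BMP lists were 0.05, 0.05 and 0.00.

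No gene was called in several lists, where differences of single genes ranged widely. None was called of 18 tested meiotic and haploid germ cell genes (median 0.13), 23 of G2 and M phase (0.1), 30 of ribosome biogenesis (0.02), 15 ephrins and their receptors (-0.18) and 14 of the interferon response (-0.06). Rragd was the 1 called gene of 30 tested in the lysosome list (median 0.04), and Cdkn1a of 21 in the p53 and apoptosis list (-0.06). Tfeb, the transcription factor of lysosome genes, averaged 167 ± 38.3 in 2 h cultures and 399 ± 44 in maintained cultures without passing the test (log2 -1.2, 95% interval -2.04 to -0.37, adjusted p = 0.125).

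**Figure D4:**
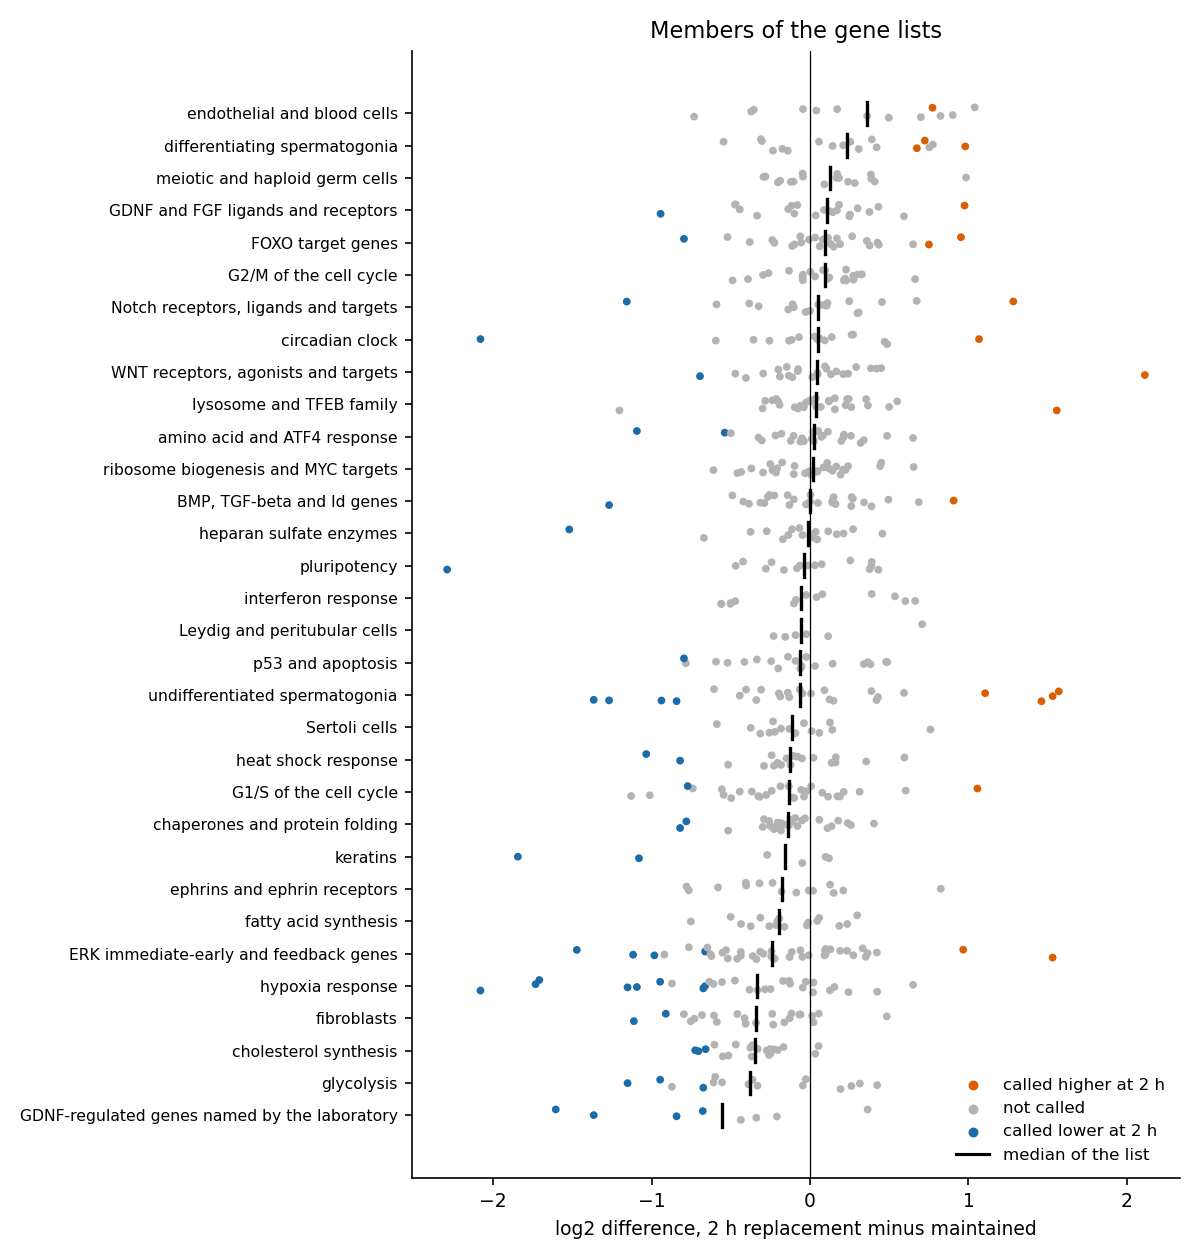
Each point is 1 tested gene of a list, placed by its log2 difference, 2 h replacement minus maintained, and the black bar is the median of the list. Lists are ordered by median, with endothelial and blood cells at 0.36 on top and the laboratory's GDNF-regulated genes at -0.56 at the bottom; the hypoxia, heat shock and keratin lists were drawn up after the values had been seen.

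Markers of other cells moved with the groups in part, and their part in the results was not tested beyond the values given here. In RNA from whole cultures, fewer cells of a type and less RNA per cell cannot be told apart. The summed signal of 23 fibroblast genes was 13732, 12364 and 8135 in 2 h cultures, against 17363, 12733 and 14368 in maintained cultures. The sums overlapped, 2 h replicate 3 being the lowest, and the median difference of the list was -0.34, which was -0.14 without 2 h replicate 3 and -0.50 without 2 h replicate 1. Timp3, an inhibitor of metalloproteinases, was called lower (247 ± 87 against 531 ± 47, adjusted p = 0.0394), as was Lox, which cross-links collagen (58.9 ± 20.4 against 122 ± 24.1, adjusted p = 0.0233), while Col1a1 (-0.13) and Dcn (-0.06) were not called. Timp3 lost its call whichever of the 6 arrays was left out (adjusted p 0.0522 to 0.151), and Lox without 2 h replicate 1, 2 h replicate 3, maintained replicate 1 or maintained replicate 3 (up to 0.117). A fibroblast term, the mean log2 value of the 23 genes after centring each gene, was added to the fit after seeing the data. With it 524 genes were called in all and 279 of the 318 kept their call. Timp3 and Lox were not called in that fit. Both are among the genes that make up the term, so the loss of their calls was partly set by the fit itself. Of the other genes named here, Myc, Pmvk, Cdkn1a, Pfkp and Bnip3 also lost their calls in that fit, while Ogn kept its call (adjusted p = 0.0126).

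The summed signal of 13 endothelial and blood cell genes was 3148, 3646 and 2463 in 2 h cultures, against 2225, 2072 and 1928 in maintained cultures, without overlap. Its brighter members are mast cell proteases: Cma1 was called higher (563 ± 67.2 against 322 ± 22.3, adjusted p = 0.0336), and Mcpt4 (1.04, adjusted p = 0.076), Tpsb2 (0.9, adjusted p = 0.215) and Cpa3 (0.5, adjusted p = 0.177) were not. Cma1 lost its call with any array left out other than 2 h replicate 3 (adjusted p up to 0.16). The defining endothelial and leukocyte genes Pecam1, Tek and Ptprc were among those too dim to be tested. Sums of 16 Sertoli cell genes were 5488, 5404 and 3677, against 6738, 5428 and 5800, and those of 6 Leydig and peritubular cell genes 676, 517 and 445, against 632, 538 and 504, with no member of either list called.

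The course over all groups sets the 2 h level between what came before and after, each with its own arrays and the same maintained cultures. Sox2 averaged 224 in maintained cultures, 37.3 after withdrawal, 33.8 at 2 h, 45.9 at 4 h and 47.3 at 8 h of replacement. It was still below the maintained level at 8 h (log2 -1.93, adjusted p = 0.000822). Snap91 and Slc2a3 were below it at 8 h too (log2 -1.49, adjusted p = 0.00644, and log2 -1.32, adjusted p = 0.00142). So were Pou3f1 (log2 -0.94, adjusted p = 0.0115) and Krt19, dim at a mean of 13.5 (log2 -2.36, adjusted p = 0.0093). Bhlhe40, at 490, 97.4, 105, 425 and 329 in the same order, was near its withdrawal level at 2 h and was not called at 4 h (log2 -0.22, adjusted p = 0.67). Adm followed 278, 126, 72.8, 200 and 249, with its lowest mean at 2 h. That 2 h level did not pass the test against withdrawal (log2 -0.68, adjusted p = 0.34).

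Genes above the maintained level at 2 h had varied courses. Camk2n1 averaged 152 in maintained cultures, 875 after withdrawal and 642, 546 and 281 at 2, 4 and 8 h of replacement, and was still called higher at 8 h (log2 0.81, adjusted p = 0.037). Zmym3 averaged 124, 819, 597, 484 and 275 in the same order, and at 8 h no longer passed the test (log2 1.01, adjusted p = 0.0605). Neurog3 averaged 80.8, 272, 278, 143 and 157, and was not called at 4 h or 8 h (adjusted p = 0.206 and 0.0895). Egr1 averaged 2456, 1448, 4818, 3633 and 2889, with its highest mean at 2 h, and was not called against maintained cultures at 4 h or 8 h (adjusted p = 0.0762 and 0.415). Chordc1 averaged 684, 586, 327, 609 and 604, with its lowest mean at 2 h.

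**Figure D5:**
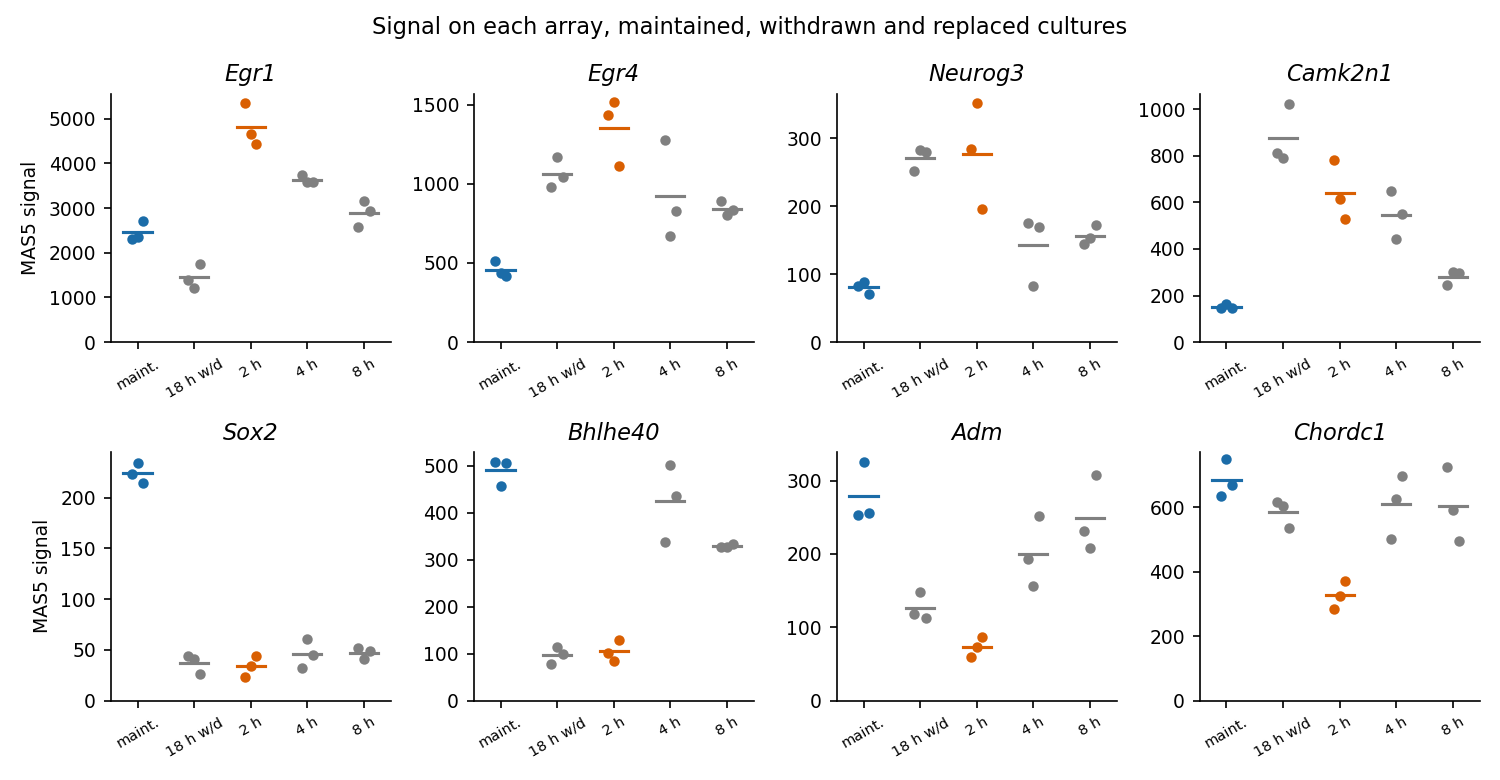
MAS5 signal on each array (points) and group mean (bars), on linear axes from 0, for 8 genes in maintained cultures (maint., blue), after 18 h of withdrawal (18 h w/d), and at 2 h (orange), 4 h and 8 h of replacement. The mean of Egr1 is highest at 2 h, and the means of Sox2 stay between 33.8 and 47.3 from withdrawal on. Chordc1 and Adm have their lowest means at 2 h, and neither passed the test of 2 h against withdrawal.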

How the data were processed

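The series holds 15 Affymetrix arrays of 1 colour, each from 1 mouse culture sample, in 5 labelled groups of 3. The deposited file gives linear MAS5 signal intensity for 45101 probe sets, computed by the authors with MAS5, per the submitters' processing notes. No source used here states the MAS5 version, scaling target or genome build. The trimmed mean over 96% of the probe sets was 150 on every array, so arrays had been scaled alike, and the number of arrays limits the precision.

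Signals were taken as log2(signal + 16). The 64 control probe sets and the dimmest 40% by mean over all arrays (signal under about 30.5) were left out. A gene was represented by its brightest probe set by mean log2 value among those with exactly 1 symbol in the platform annotation (34958 had 1 symbol, 932 several, 9211 none), which gave 13083 genes, 13063 of them with a symbol in the RefSeq table. Group means were fitted over all 15 arrays with limma 3.58.1 in R 4.3.3 (lmFit, eBayes with a variance trend, 10 residual degrees of freedom, two-sided, Benjamini-Hochberg adjustment over all genes), and the script was tested on simulated data. Values with ± are means and SDs of signal unless marked SE, and folds and 95% intervals are limma's.

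Named genes were the 15 largest rises and 15 largest falls among called genes whose arrays did not overlap, up to 4 called members of each of 29 lists, and a set of spermatogonial and ERK genes. Upp1, Eomes, Ier5, Cirbp, Cxcl12, Nktr, Rsrp1, Arrdc3, Timp1, Bnip3, Chordc1 and Krt18, and other list members given as examples, were chosen after their values were seen. The comparison, its lists and this rule were chosen with earlier results of these data known, and 3 further lists (hypoxia, heat shock, keratins) after the values of this comparison were seen. Same-numbered arrays of the 2 groups did not deviate together (correlations 0.111, -0.112 and 0.078), so the numbers were not taken as pairs. Promoter windows came from a RefSeq table on GRCm38.p6 and were searched on both strands for the CArG box and the 3 motifs spelled out with the results. The alternatives were other constants, filters, normalizations, probe set rules and variance models, arrays left out singly, and terms for fibroblast signal and the actin ratio.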

Additional observations from a re-analysis of the deposited data

How the results depend on the processing

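The direction of every called gene named above held under each of the 21 alternatives that measured it but that of Cxcl12, which read 0.0178 with the mean of its probe sets. Of 75 called named genes, 31 also kept their call under every alternative that measured them; the calls lost most often were those of Pmvk (under 12), Cdc6, Pfkp, Timp3 and Cirbp (under 11 each) and Lhx1 and Msmo1 (under 9 each). With the mean of a gene's probe sets 14 of the 75 calls were lost (Esr1, Lhx1, Pou3f1, Msmo1, Txnip, Pfkp, Vldlr, Jag1, Timp3, Lox, Ier5, Cirbp, Cxcl12 and Rsrp1). With a constant of 64 the log2 differences of 16 were smaller by over 1.5 times (Rspo1, Tekt2, Unc5a, Esr1, Nos1ap, Krt19, Cdc42ep2, Snap91, Phyhipl, Ogn, Rbm43, Myc, Hes5, Lox, Upp1 and Krt18). The number of called genes, 318, was 1626 with array weights (819 higher, 807 lower). It was 624 with the spread estimated without withdrawal replicate 3 (293 higher, 331 lower). With the fibroblast term it was 524 (256 higher, 268 lower), and with the actin ratio as a term 650 (312 higher, 338 lower). The last 2 terms were added after seeing the data, and the causes were not tested. Leaving out 1 of the 6 arrays gave 66 to 323 called genes, 30 to 175 higher and 36 to 155 lower. The count at 2-fold or more, 81, was 35 with a constant of 64, 172 with array weights, 138 with the fibroblast term and 44 to 114 with 1 array left out. The other alternatives gave counts within 1.5 times those reported. With the replicate block, 339 genes were called (163 higher, 176 lower), 301 of them among the 318, although the numbers do not pair the arrays. Genes near 0 that were not called changed sign: Pou5f1 (-0.0063 with quantile normalization, -0.0117 to 0.0565 with 1 array left out), Dusp6 (-0.4011 to 0.1634 with 1 array left out), Spry4 (-0.1116 with the mean of its probe sets, -0.0002 with array weights, -0.1005 to 0.2646 with 1 array left out) and Etv4 (-0.2558 to 0.1883 with 1 array left out).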

Other observations

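Some genes outside the lists were away from the maintained level at 2 h while their mean after withdrawal lay near it. They were picked after their values had been seen, and none passed the test against withdrawal. Nktr, a cyclophilin-related protein with domains rich in serine and arginine, read 614, 614 and 636 in 2 h cultures, against 384, 288 and 339 in maintained cultures (log2 0.86, adjusted p = 0.00889), and averaged 381 after withdrawal. Rsrp1, a protein rich in arginine and serine, read 256, 249 and 253, against 398, 528 and 482 (log2 -0.84, adjusted p = 0.0159), with a withdrawal mean of 447. The 2 h arrays lay close together for both genes, and neither overlapped with maintained cultures, as held for 23.7% of all genes. Cirbp, a cold-inducible RNA-binding protein, averaged 1695 ± 162 against 1018 ± 168 (log2 0.74, adjusted p = 0.047), with a withdrawal mean of 1116. Cxcl12, the ligand of Cxcr4, averaged 265 ± 73.5 against 456 ± 54.3 (log2 -0.78, adjusted p = 0.0248), with a withdrawal mean of 461. Against withdrawal the adjusted p-values were 0.156 for Nktr, 0.118 for Rsrp1, 0.431 for Cirbp and 0.118 for Cxcl12. Nktr kept its call whichever of the 6 arrays was left out. Rsrp1 lost it without 2 h replicate 1, 2 h replicate 2, maintained replicate 2 or maintained replicate 3 (adjusted p up to 0.0805), Cirbp with any array left out other than maintained replicate 1 (up to 0.182), and Cxcl12 with any array left out other than 2 h replicate 1 (up to 0.0844). Other probe sets of Rsrp1 read 0.07 and -0.44 without a call. A dimmer probe set of Cxcl12 went the other way, at 147.5 in 2 h cultures against 76.2 in maintained cultures (log2 0.82). Over all probe sets its adjusted p was 0.056 and that of the chosen one 0.053, so the direction of Cxcl12 is not settled. Cirbp and Cxcl12 also lost their calls with the fibroblast term, and Cxcl12 read 0.0178 with the mean of its probe sets.

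Arrdc3, an arrestin-domain protein that guides receptors to degradation, was above the maintained level with little spread, at 467, 437 and 387 in 2 h cultures, against 177, 194 and 189 in maintained cultures (log2 1.14, 2.2-fold, adjusted p = 5.98e-05). Its mean after withdrawal was 334, and it was not called at 4 h or 8 h of replacement (adjusted p = 0.147 and 0.493). Timp1, which was not called (515 ± 46.5 against 720 ± 136, adjusted p = 0.287), is another inhibitor of metalloproteinases.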
